A study of Mus musculus with 2 samples.

Results

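Proximal tubule transporters and endocytic receptors are the carriers, channels and uptake receptors by which the first part of the nephron recovers filtered sugars, amino acids, phosphate, organic acids and proteins. They were followed here as a group of 48 genes among the 22911 genes named on the arrays. The members were chosen by gene symbol, and a probe counted for a member when the RefSeq accession in its annotation mapped to that symbol. All 48 members had at least 1 such probe, and 71 probes represented them.

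The RNA was labelled as that of regulatory T cells (Tregs) and not of tubules. The cells were taken from mouse kidneys on day 28 of a disease that the labels call cGN, induced with antibodies to the glomerular basement membrane (anti-GBM), and the gate selected T cells positive for CD45, CD3e and CD4 that showed human CD2, the reporter of FoxP3 (FoxP3-hCD2). In the scanner output array 2 is filed under anti-GBM lot M and array 1 under lot I, and both groups shared the sort, the disease model and the day. The labels state that severity varied with the antibody lot. Strain, age and the number of mice behind each array are not given in the sources used here. With 1 array per lot, no test was possible, no p-value is given, and every difference describes these 2 arrays.

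The lot of each array is not settled, because the scanner output and the deposited value table label them in opposite ways. The scanner output of array 2 is filed under lot M, but the value table column labelled lot I holds its values: the log10 ratio of signal to value had an SD of 0.000143 over 13802 probes against that column and 0.0545 against the column labelled lot M. For array 1, filed under lot I, the SD was 0.000177 over 13919 probes against the column labelled lot M and 0.0470 against that labelled lot I. The arrays are therefore called by number, and no result below is assigned to a lot. The share of the 56605 probes well above background was 54.0% on both arrays. The scanner's quality summary had 9 of 10 metrics in range on array 2, with the detection limit of the spike-in controls out of range, and 10 of 10 on array 1. The part of this in the differences given here was not tested. All 7 Treg markers (Foxp3, Cd3e, Cd4, Il2ra, Ctla4, Ikzf2 and Ptprc) were well above background on both arrays. Their median difference was 0.02 on the log2 scale, and their summed level was 7.57 on array 2 and 7.56 on array 1.

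The proximal tubule is described in 3 segments. S1 and the beginning of S2 form the convoluted part, where most glucose, phosphate, bicarbonate and amino acids are taken back across the brush border and passed to the blood by basolateral carriers, while S3, the end of the straight part, carries high-affinity transporters that recover what is left. Organic anion and cation carriers secrete drugs and metabolites from blood to urine. Megalin and cubilin retrieve filtered proteins by endocytosis.

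Promoter sequences are shown first for members that hold the core of the motif of HNF1, a transcription factor family that drives many proximal tubule genes. RefSeq promoter windows (GRCm38.p6, 250 bases before to 50 after the annotated start) were found for 42 of the 48 members, in 55 windows, and not for Slc5a2, Slc5a12, Slc6a18, Slc13a1, Slc23a1 and Slc47a1. The HNF1 core GTTAAT, searched on both strands, was present for 8 of these members (19.0%; Dab2, Slc22a6, Slc22a8, Slc34a1, Slc3a1, Slc5a10, Slc6a13 and Slc7a7) and for 2228 of 27025 genes with a window (8.24%). By window it was present in 14.5% of the member windows and 7.10% of all windows. The HNF4 site CAAAGTCCA was found for 1 member, Slc3a1, and for 0.555% of all genes. A match is a run of letters in the window and not a shown binding site. Below, capitals mark the HNF1 core and, in Slc3a1, also the HNF4 site; Slc34a1 is shown because it holds 2 cores, Slc22a6 and Slc22a8 because they are direct neighbours on chromosome 19 with a core each, and Slc3a1 because it holds both motifs.
Slc34a1: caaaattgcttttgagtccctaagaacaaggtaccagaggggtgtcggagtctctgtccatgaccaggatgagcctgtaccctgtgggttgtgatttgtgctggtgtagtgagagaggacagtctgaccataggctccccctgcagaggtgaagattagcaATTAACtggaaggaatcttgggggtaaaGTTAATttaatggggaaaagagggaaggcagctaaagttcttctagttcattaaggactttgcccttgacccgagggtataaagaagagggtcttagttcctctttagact
Slc22a6: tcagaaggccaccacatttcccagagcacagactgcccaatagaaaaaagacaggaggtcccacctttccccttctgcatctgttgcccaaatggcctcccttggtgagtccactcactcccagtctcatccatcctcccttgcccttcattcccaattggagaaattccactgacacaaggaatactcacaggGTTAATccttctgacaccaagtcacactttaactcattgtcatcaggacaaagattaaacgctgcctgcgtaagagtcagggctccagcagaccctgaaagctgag
Slc22a8: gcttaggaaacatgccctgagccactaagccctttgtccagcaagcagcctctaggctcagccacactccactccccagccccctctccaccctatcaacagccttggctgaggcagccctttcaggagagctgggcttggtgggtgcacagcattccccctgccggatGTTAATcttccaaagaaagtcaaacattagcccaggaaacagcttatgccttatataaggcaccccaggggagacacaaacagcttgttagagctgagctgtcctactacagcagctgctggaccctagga
Slc3a1: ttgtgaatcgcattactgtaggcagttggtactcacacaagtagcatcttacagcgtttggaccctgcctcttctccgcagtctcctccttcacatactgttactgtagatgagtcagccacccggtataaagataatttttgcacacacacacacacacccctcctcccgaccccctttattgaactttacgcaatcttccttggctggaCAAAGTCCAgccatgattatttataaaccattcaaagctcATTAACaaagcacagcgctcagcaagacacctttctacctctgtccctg
The windows lie at chr13:55399398-55399697, chr19:8617746-8618045, chr19:8592932-8593231 and chr17:85028097-85028396, in the order shown, all on the + strand. The cores begin 89 and 61 bases before the annotated start in Slc34a1, 56 bases before it in Slc22a6 and 81 bases before it in Slc22a8. In Slc3a1 the HNF4 site begins 39 bases before the start and the core 1 base after it.

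Nearly all members gave a signal in the sorted-cell RNA. A gene was counted as measured where at least 1 of its probes was well above background on both arrays by the scanner's flag, and 45 of the 48 members were, against 60.0% of all named genes. Slc22a4, which carries ergothioneine and is also known from myeloid cells, was well above background on array 2 alone, as were 1.65% of all genes. Slc22a19, an organic anion carrier, and Slco1a1, an organic anion transporter of the brush border, were well above background on neither array, as were 37.1% of all genes. Levels below are log2 of the processed signal over the array's 75th percentile, so that 0 marks the 75th percentile, and the detection floor lay at -4.58 on array 2 and -4.62 on array 1. Of the 45 measured members, 20 lay above the 75th percentile on array 2 and 11 on array 1, and these 11 were above it on both arrays.

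**Figure D1:**
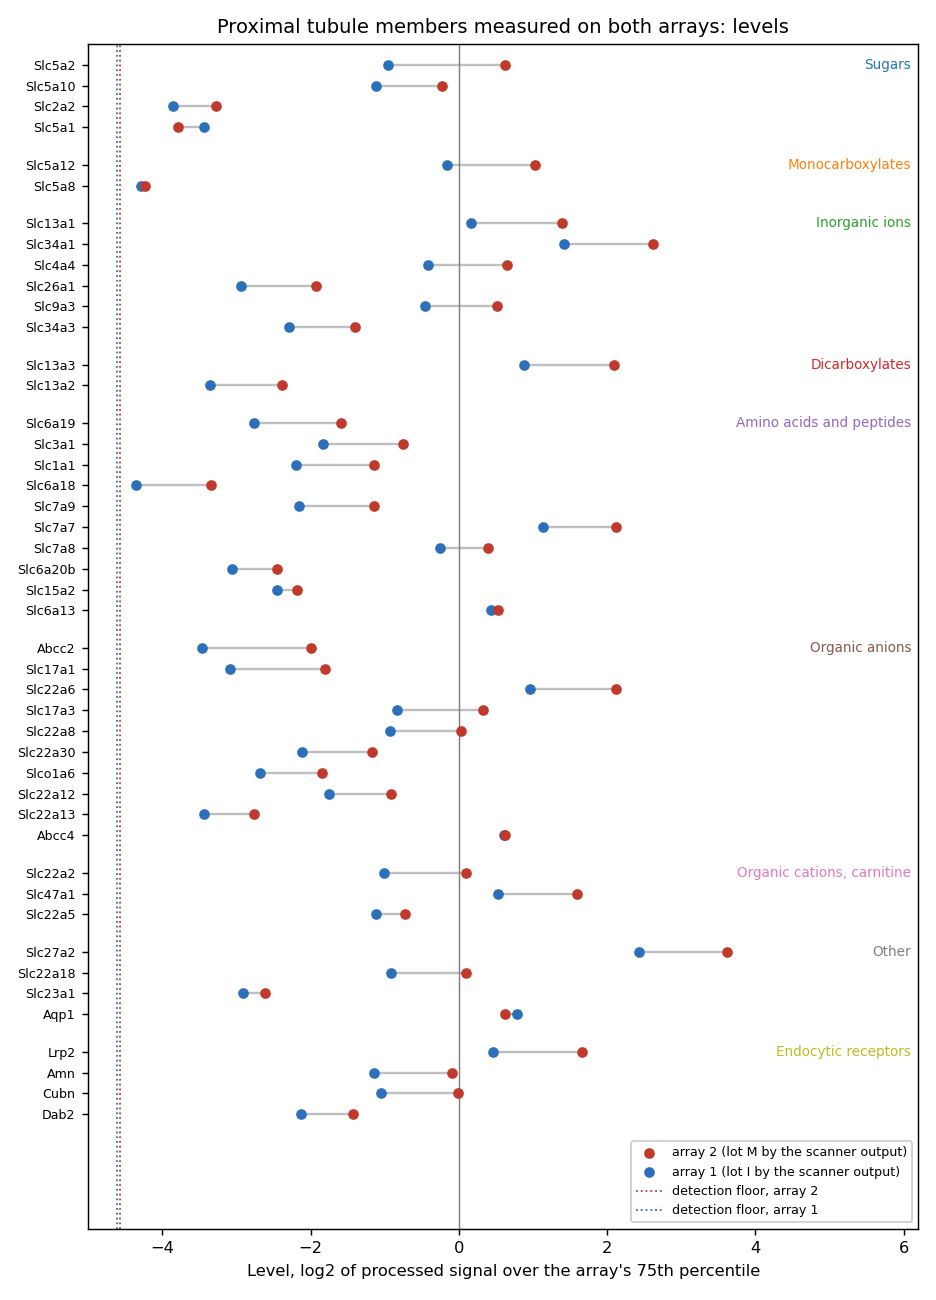
Level of each of the 45 measured members on array 2 (red) and array 1 (blue), as log2 of processed signal over the array's 75th percentile, grouped by cargo; dotted lines mark the detection floors at -4.58 (array 2) and -4.62 (array 1). The red point lies to the right of the blue one for 43 members, of which Slc5a8 and Abcc4 turn with spike-in scaling, and to the left for Slc5a1 and Aqp1.

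Most members were about 2-fold higher on array 2. The median difference, array 2 minus array 1, was 1.01 on the log2 scale (2.01-fold) over the 45 measured members, against 0.01 over all 13743 measured genes. The interquartile range was 0.68 to 1.16. Higher on array 2 were 43 members and lower 2, where 53.8% of all genes were higher; of the 43, Slc5a8 and Abcc4 turned to lower under spike-in scaling, and 1 of them under normexp, no scaling or lowess centring. A difference of 2-fold or more was reached by 23 members on array 2, where 1.34% of all genes reached it, and by 0 on array 1, where 0.0873% of all genes did. The 23 members were among 184 genes of that size on array 2. Normexp background correction was run with an offset of 50 added to each signal. With it, 7 members and 28 genes in all were 2-fold or more higher on array 2, and the members' median was 0.62. At 1.5-fold or more, 36 members were higher on array 2 and 0 on array 1, against 5.15% and 0.815% of all genes. At 4-fold or more, 0 members were higher on array 2 and 0 on array 1, against 0.0655% and 0.0146% of all genes. In such bulk RNA, a difference in the number of contributing cells and one in RNA per cell cannot be told apart.

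Each difference is printed with an error derived from the spot errors that the scanner software estimates, which does not include variation between mice, sorts or hybridisations. Against it, 38 of the 45 members were higher on array 2 by more than 2 errors, as were 7.9% of all genes, and 0 were lower by that much, as were 2.29% of all genes. The other 7 lay within 2 errors of no difference (Slc5a1, Slc5a8, Slc6a13, Slc15a2, Slc23a1, Abcc4 and Aqp1). The members were also close to each other: 35 lay within 2 errors of the members' own median, and 30 had a difference between 0.8 and 1.3. The 2-fold limit cuts through this cluster, with 10 members between 1 and 1.1 and 5 between 0.9 and 1, and 7 members passed it by more than 1 error. Slc5a2, by the mean of its 2 probes, was the 1 member more than 2 errors above the median, and 9 lay more than 2 errors below it (Slc5a1, Slc5a8, Slc6a13, Slc6a20b, Slc15a2, Slc22a5, Slc23a1, Abcc4 and Aqp1).

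**Figure D2:**
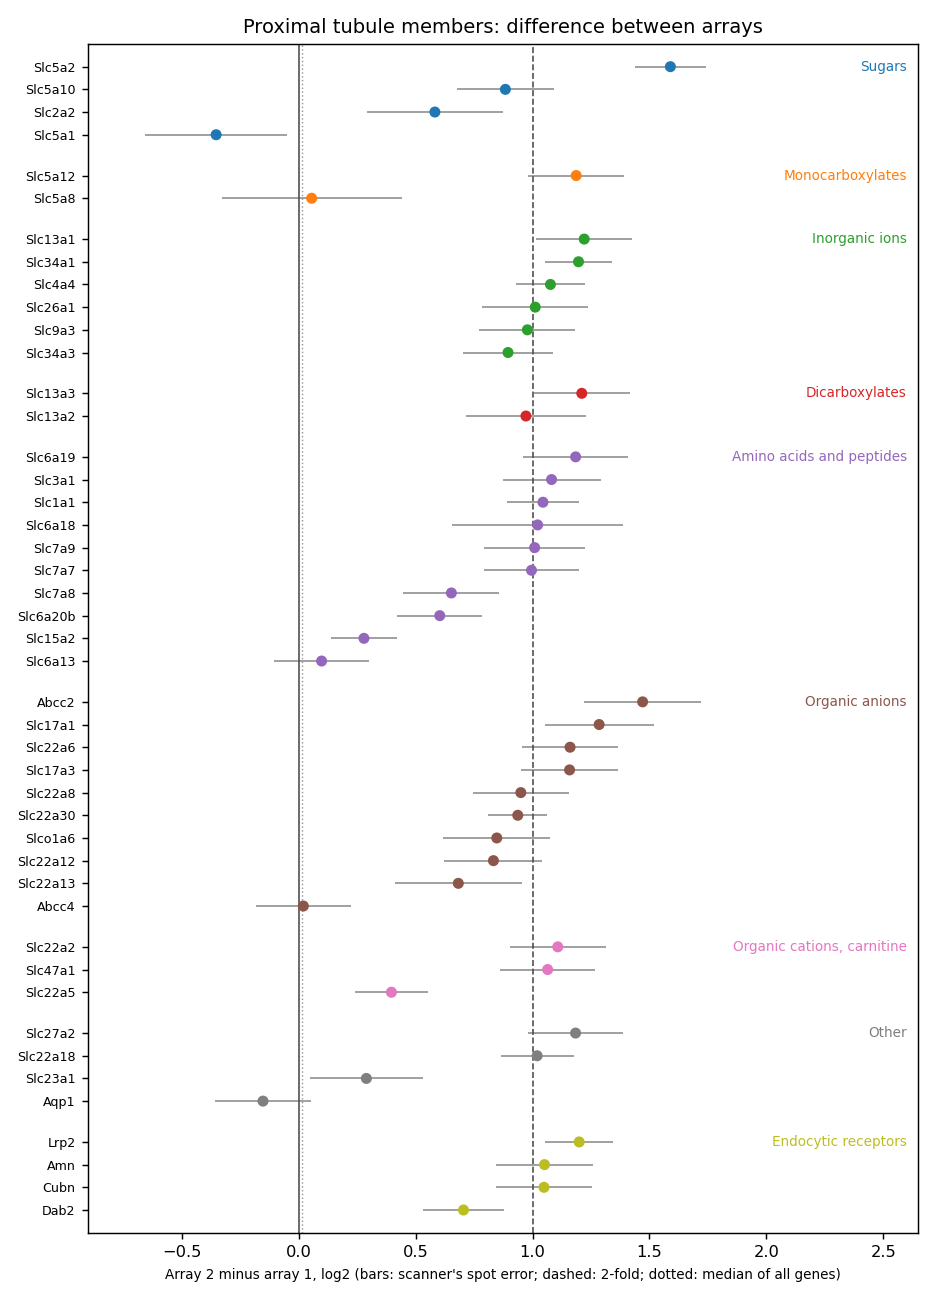
Difference between arrays (array 2 minus array 1, log2) for the 45 measured members, by cargo, with the scanner's spot error as bars; the dashed line marks 2-fold and the dotted line the median of all genes (0.01). Most points cluster around the 2-fold line, and 7 members lie within 2 errors of 0 (Slc5a1, Slc5a8, Slc6a13, Slc15a2, Slc23a1, Abcc4 and Aqp1).

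Among the sugar carriers, 1 of 4 was 2-fold higher on array 2. Slc5a2, the sodium-glucose cotransporter SGLT2 of S1 and S2, had 0.63 on array 2 and -0.96 on array 1 (1.59 ± 0.15, 3.01-fold). Its 2 probes gave 1.90 ± 0.22 and 1.28 ± 0.20, and with the brighter probe alone the difference was 1.28. Slc5a10, a mannose and fructose carrier, had -0.23 on array 2 and -1.12 on array 1, a gap of 0.88 ± 0.21. Slc2a2, the basolateral glucose carrier GLUT2, had -3.28 on array 2 and -3.86 on array 1 (0.58 ± 0.29), close to the detection floor on both. Slc5a1, the glucose transporter SGLT1 of S3, was dimmer on array 2 at -3.79, against -3.44 on array 1, a difference of -0.35 ± 0.30. It rests on 1 probe, also close to the detection floor on both arrays, and with normexp its difference was -0.02. The S1/S2 glucose transporter was thus higher on array 2 by far more than its spot error, whereas SGLT1 differed by little more than 1 error in the other direction. Of the lactate carriers, Slc5a12, the low-affinity one, had 1.03 on array 2 and -0.16 on array 1 (1.19 ± 0.20), and Slc5a8, its high-affinity counterpart of S3, lay near the floor at -4.24 on array 2 and -4.29 on array 1 (0.06 ± 0.38, with the sign turned under normexp, spike-in scaling and lowess centring).

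All 6 carriers of inorganic ions were higher on array 2 by more than 2 errors, 4 of them by at least 2-fold (median 1.04). Slc34a1, the main sodium-phosphate cotransporter of the brush border, had 2.62 on array 2 and 1.42 on array 1, and its 2 probes gave 1.18 and 1.22 (mean 1.20 ± 0.14). Slc34a3, another phosphate cotransporter, had -1.40 on array 2 and -2.29 on array 1 (0.90 ± 0.19). Both phosphate carriers were higher on array 2 by more than 2 errors. Slc13a1, the sulfate carrier of the brush border, had 1.39 on array 2 and 0.17 on array 1 (1.22 ± 0.20), and its basolateral partner in sulfate transport, Slc26a1, had -1.92 on array 2 and -2.94 on array 1 (1.01 ± 0.23). Slc4a4, which returns bicarbonate to the blood, had 0.66 on array 2 and -0.42 on array 1 (1.08 ± 0.15). Slc9a3, the sodium-proton exchanger of the brush border, had 0.51 on array 2 and -0.46 on array 1 (0.98 ± 0.21), just under 2-fold, while a further probe of this gene was too dim to use. The 6 differences spanned 0.90 to 1.22, so apical and basolateral carriers of this group had overlapping values.

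The dicarboxylate carriers, which take up citrate and other intermediates of the citric acid cycle, were both higher on array 2. Slc13a3, the basolateral carrier, had 2.09 on array 2 and 0.88 on array 1 (1.21 ± 0.20). Slc13a2, the apical carrier, had -2.39 on array 2 and -3.36 on array 1 (0.97 ± 0.26).

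All 10 amino acid and peptide carriers were higher on array 2, 8 by more than 2 errors and 5 by at least 2-fold, and their median was 1.002. Slc6a19, the main neutral amino acid carrier of the early brush border, had -1.59 on array 2 and -2.77 on array 1 (1.18 ± 0.22). Its relative Slc6a18, placed in S3, had -3.34 on array 2 and -4.36, near the detection floor, on array 1 (1.02 ± 0.37). Slc3a1 and Slc7a9 encode the subunits of the cystine and dibasic amino acid exchanger that is defective in cystinuria. Slc3a1 had -0.76 on array 2 and -1.84 on array 1 (1.08 ± 0.21), and Slc7a9 had -1.14 on array 2 and -2.15 on array 1 (1.01 ± 0.22), so the subunits differed between arrays by the same amount within error. Slc1a1, a glutamate and aspartate carrier, had -1.15 on array 2 and -2.19 on array 1 (1.04 ± 0.15). Of the basolateral exchangers, Slc7a7, which is also found in macrophages, had 2.13 on array 2 and 1.13 on array 1, a difference of 0.995 ± 0.20 that stood just under 2-fold. Slc7a8 had 0.40 on array 2 and -0.26 on array 1 (0.65 ± 0.20). Slc6a20b, a relative of the proline carrier, had -2.46 on array 2 and -3.06 on array 1 (0.60 ± 0.18). These last 2 were higher on array 2 as well, by smaller amounts. Slc6a13, a carrier of GABA, was the member of this group with the smallest gap, 0.53 on array 2 against 0.43 on array 1 (0.10 ± 0.20).

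Slc15a2, the high-affinity peptide carrier of S3, gave different answers by probe. Its probe for 1 RefSeq transcript had -2.87 on array 2 and -4.05 on array 1 (1.18 ± 0.30). Its 3 probes for the other transcript differed by -0.17 ± 0.36, -0.09 ± 0.23 and 0.21 ± 0.20. The mean of the 4 probes was 0.28 ± 0.14, between the value of the first probe and those of the other 3. Transcripts are named here by probe annotation, and whether the probes tell them apart was not tested. Of the 12 members measured on several probes, the other 11 had probes of a common sign, and 10 of the 12 had probes within 0.4 of each other. The 33 remaining members rest on 1 measured probe each.

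**Figure D3:**
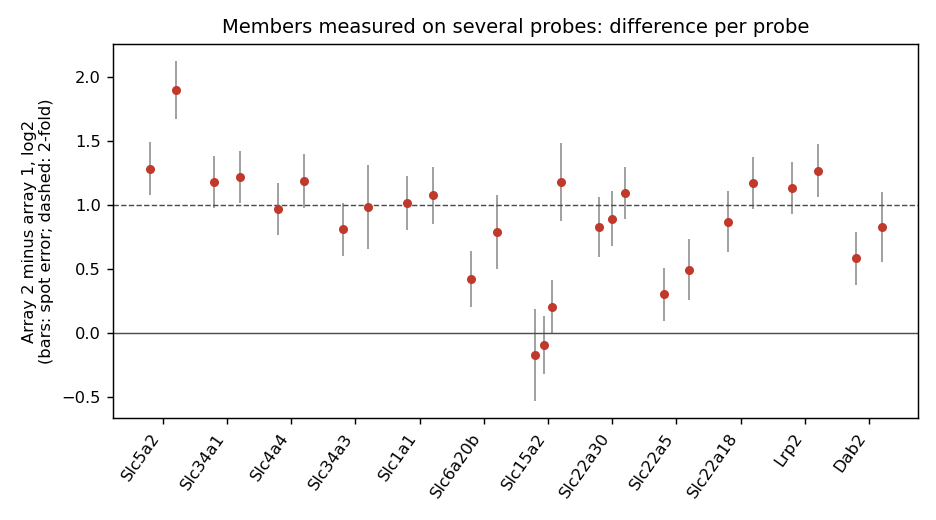
Difference between arrays (array 2 minus array 1, log2) for each probe well above background on both arrays, for the 12 members measured on several probes, with the scanner's spot error as bars. Probes of a gene lie close together except in Slc5a2 (1.28 and 1.90) and Slc15a2, where 1 probe stands at 1.18 and 3 lie between -0.17 and 0.21.

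Of the 12 organic anion carriers, 10 were measured and all 10 were higher on array 2 (Abcc4 not with spike-in scaling or without scaling), 9 of them by more than 2 errors and 4 by at least 2-fold. Their median was 0.94. Slc22a6 and Slc22a8 encode the basolateral anion exchangers OAT1 and OAT3, which load drugs and urate from blood into the tubule cell. Slc22a6 had 2.11 on array 2 and 0.95 on array 1 (1.16 ± 0.20), and Slc22a8 had 0.02 on array 2 and -0.93 on array 1 (0.95 ± 0.21). With Slc22a30 (-1.18 on array 2 and -2.11 on array 1, 0.94 ± 0.13), a member of the same family, they are 3 consecutive protein-coding genes on chromosome 19, and the promoters of Slc22a6 and Slc22a8 are shown above. Abcc2, an export pump of the brush border, had -1.99 on array 2 and -3.47 on array 1 (1.47 ± 0.25). Slc17a1 and Slc17a3, apical anion and urate carriers that lie side by side on chromosome 13, had -1.81 and 0.33 on array 2 against -3.09 and -0.83 on array 1 (1.28 ± 0.23 and 1.16 ± 0.21). Both lay more than 2 errors above 0. The urate exchanger Slc22a12 had -0.92 on array 2 and -1.75 on array 1 (0.83 ± 0.21). Slc22a13, a carrier of nicotinate and urate, had -2.76 on array 2 and -3.44 on array 1 (0.68 ± 0.27). Slco1a6, an organic anion transporter, had -1.84 on array 2 and -2.69 on array 1 (0.85 ± 0.23). Slco1a6 and the nearby Slco1a1 belong to a family of similar genes, so which member a probe reports is uncertain. Abcc4, an export pump found in platelets and leukocytes as well as in the brush border, had 0.63 on array 2 and 0.61 on array 1 (0.02 ± 0.20).

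The organic cation and carnitine carriers had 3 of 4 members measured, with a median of 1.06. Slc22a2, the basolateral cation carrier OCT2, had 0.09 on array 2 and -1.01 on array 1 (1.11 ± 0.21). Slc47a1, the apical extruder MATE1 that works with it in secretion, had 1.59 on array 2 and 0.53 on array 1 (1.06 ± 0.20). The steps of cation entry and exit thus differed between the arrays to the same extent within error. Slc22a5, the carnitine carrier, had -0.72 on array 2 and -1.12 on array 1 (0.40 ± 0.16), and its 2 probes gave 0.49 and 0.30. Slc22a4, its close neighbour on chromosome 11, was well above background on array 2 alone (level -3.34, against -4.53 on array 1, not well above background there). Its bound was 2.27-fold higher on array 2, which equals the plain difference of its probe (1.19 ± 0.38). Such a bound sets the bright array's level against the higher of the other array's detection floor and the probe's own level there. It carries the error of dim spots, so a smaller difference is possible. The anion and cation carriers overlapped in their differences, 0.02 to 1.47 for anions and 0.40 to 1.11 for cations and carnitine.

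The endocytic receptors were higher on array 2 in all 4 cases, by more than 2 errors each and by at least 2-fold in 3 (median 1.05). Lrp2, which encodes the scavenger receptor megalin, had 1.66 on array 2 and 0.47 on array 1 (1.20 ± 0.14). Cubn, which encodes its partner cubilin, had -0.01 on array 2 and -1.06 on array 1 (1.05 ± 0.21), and Amn, which anchors cubilin in the membrane, had -0.10 on array 2 and -1.15 on array 1 (1.05 ± 0.21). The 3 parts of the receptor complex thus differed between arrays by like amounts. Dab2, the endocytic adaptor of megalin, which macrophages also express, had -1.43 on array 2 and -2.13 on array 1, and its 2 measured probes gave 0.58 and 0.83 (mean 0.70 ± 0.17).

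Of the remaining members, Slc27a2, a fatty acid carrier and activating enzyme, had 3.62 on array 2 and 2.43 on array 1 (1.18 ± 0.20). Slc22a18, a carrier of less well defined cargo, had 0.10 on array 2 and -0.92 on array 1 (1.02 ± 0.16). Slc23a1, the vitamin C carrier, had -2.62 on array 2 and -2.91 on array 1 (0.29 ± 0.24). Aqp1, the water channel of the proximal tubule and thin descending limb, which endothelium and red cells also express, had 0.63 on array 2 and 0.78 on array 1 (-0.15 ± 0.20). Of the 6 members known to be expressed outside the tubule (Dab2, Aqp1, Slc7a7, Abcc4, Slc22a4 and Slc22a18), the 5 measured ones had a median of 0.70, and 1 was 2-fold higher. Without these 6 the median of the members was 1.02 over 40 genes, with 22 of them 2-fold higher on array 2.

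**Figure D4:**
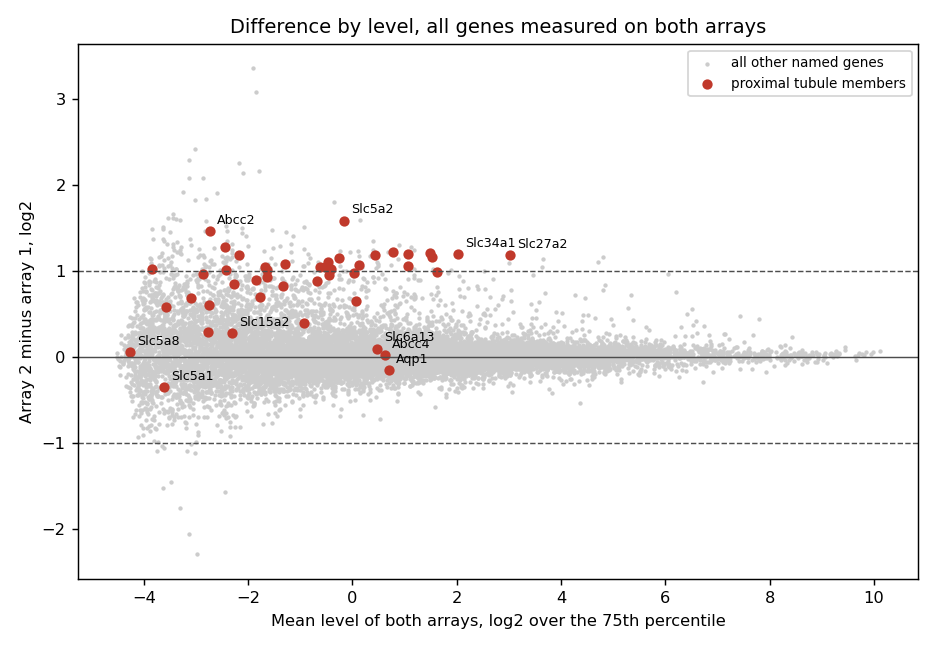
Difference between arrays (array 2 minus array 1, log2) against mean level for all 13743 measured genes (grey) and the 45 members (red); dashed lines mark 2-fold. Most members lie near the upper dashed line across their range of levels, with Slc5a1 and Slc5a8 at the dim end and Slc6a13, Abcc4 and Aqp1 near 0 among brighter genes.

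Transporters of the early segments were all measured and mostly near 2-fold higher on array 2, while those of S3 lay nearer the detection floor and spread more widely. The difference between the segment lists was not tested. The S1/S2 list (Slc5a2, Slc2a2, Slc34a1, Slc34a3, Slc6a19, Slc4a4, Slc7a7, Slc7a8 and Slc5a12) had 9 of 9 genes measured, all 9 higher on array 2 by more than 2 errors and 5 by at least 2-fold. Their median was 1.08 and their range 0.58 to 1.59. The S2 list (Slc22a6, Slc22a8 and Slc22a2) had 3 of 3 measured and a median of 1.11. The S3 list (Slc5a1, Slc5a8, Slc6a18, Slc3a1, Slc15a2, Slc22a19, Slco1a1 and Slc23a1) had 6 of 8 measured and a median of 0.28, with 5 higher and 1 lower on array 2 (Slc5a8 turned with spike-in scaling, normexp and lowess centring) and a range of -0.35 to 1.08. Among S3 genes, 2 were higher by more than 2 errors, Slc3a1 (1.08) and Slc6a18 (1.02), both at the size of the S1/S2 median. Slc6a18 rests on 1 measured probe, which lay near the detection floor on array 1 (-4.36). Signals of the S3 list lay closer to the floor, with a median level of -2.98 on array 2 and -3.17 on array 1, against 0.63 on array 2 and -0.42 on array 1 for the S1/S2 list. The part of signal strength in the lower S3 median was not tested. Split by the mean level of both arrays, a split chosen after the values were seen, 14 members lay under -2, of which 5 were 2-fold or more higher on array 2, with a median of 0.76. Of the 31 others 18 were, with a median of 1.04. Over all genes the medians in these ranges were 0.066 and 0.0094. The share of all genes at 2-fold or more on array 2 was 1.34% over all levels and was not computed within each range. When probes had to reach 4 times the detection floor, 2 S3 genes remained, Slc3a1 at 1.08 and Slc15a2 at 0.06.

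Other genes that work with the members were also higher on array 2 in most cases. Of 17 partners, 14 were measured, 12 were higher on array 2, 9 by more than 2 errors and 4 by at least 2-fold. Of all genes, 53.8% were higher on array 2, 7.9% by more than 2 errors and 1.34% by at least 2-fold. The partners' median was 0.68. Among the 4 partners at 2-fold or more were Slc7a13, an amino acid transporter of S3 (1.15 ± 0.36), and Cltrn, which brings Slc6a19 to the brush border (1.09 ± 0.20). Slc7a13 rests on 1 dim probe, at -3.29 on array 2 and at -4.43, near the detection floor, on array 1. Hnf4a, a transcription factor of proximal tubule genes, differed by 0.73 ± 0.20, and the scaffold gene Pdzk1 by 0.66 ± 0.15. The anion carrier gene Slc22a7 was well above background on array 2 alone, with a bound of 1.66-fold, while Slc7a12 was well above background on neither. Near 0 were the scaffold gene Slc9a3r1 (-0.02 ± 0.14), the heavy chain gene Slc3a2 (-0.0034 ± 0.14) and the chaperone gene Lrpap1 (0.11 ± 0.14), all 3 expressed in many tissues. Atp1b1, which encodes a sodium pump subunit present in all nephron segments, differed by 0.64 ± 0.20.

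Markers of the other cells of the kidney had smaller median differences than the members. The thick ascending limb list (5 of 5 measured, among them Umod and Slc12a1) had a median of 0.42, and its summed level was 6.97 on array 2 and 6.55 on array 1. The list for distal tubule and collecting duct (8 of 9 measured) had a median of 0.74, above that of the S3 members (0.28). In this distal list 7 were higher on array 2, 6 by more than 2 errors and 2 by 2-fold or more (Aqp2 at 1.60 and Pvalb at 1.41). The shares of all genes were 53.8%, 7.9% and 1.34%. The largest difference of a member was 1.59 (Slc5a2). The summed level of the distal list was 3.30 on array 2 and 2.74 on array 1. Scnn1b was well above background on neither array. For the members the summed level was 6.05 on array 2 and 5.06 on array 1. Such sums depend on the number of genes in a list and on its brightest genes, such as Umod (6.79 on array 2) and, for tubule injury, Spp1 (4.66 on array 2). They can be compared between arrays but not between lists. Macrophage markers (7 of 7 measured, including Adgre1 and C1qa) were all higher on array 2, 2 of them by more than 2 errors. Of all genes, 53.8% were higher and 7.9% by more than 2 errors. The macrophage median was 0.34, and the summed level of these markers was 4.40 on array 2 and 4.05 on array 1. Endothelial markers (6 of 7, all but Tek) had a median of -0.03 and a summed level of 1.79 on array 2 and 1.82 on array 1. Of the podocyte markers 1 of 5 was measured (Synpo, -0.05), while Nphs1, Podxl and Wt1 were well above background on neither array. The tubule injury list had 3 of 5 genes measured, with a median of 0.49 and a summed level of 4.72 on array 2 and 4.24 on array 1. Its Havcr1, which encodes the injury marker KIM-1, was well above background on array 2 alone, with a bound of 2.90-fold. Spp1 differed by 0.49 ± 0.20, Vcam1 by 0.57 ± 0.18 and Lcn2 by 0.15 ± 0.16, while Krt20 was well above background on neither array. The part of these other cells in the members' differences was not tested.

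**Figure D5:**
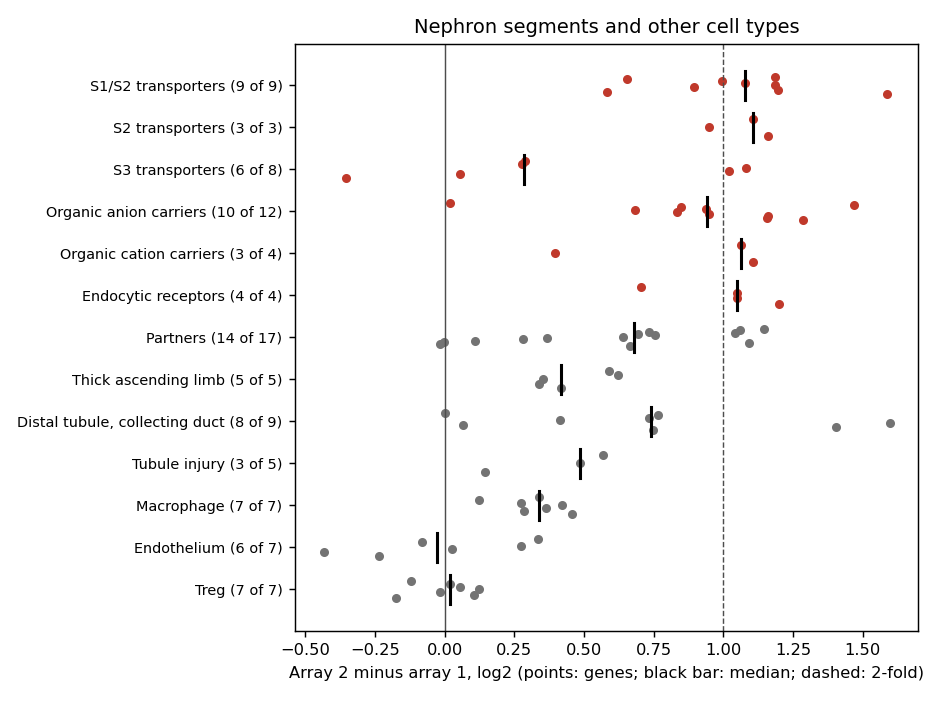
Difference between arrays (array 2 minus array 1, log2) of each measured gene in the segment and cargo lists of members (red) and in the partner and marker lists (grey), with the median of each list as a black bar and the number measured of the number listed in brackets. The S1/S2 and S2 medians stand at 1.08 and 1.11, the S3 median at 0.28, and the Treg and endothelial medians near 0.

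Several members lie next to each other in the genome. Besides the genes given above, Slc6a18 and Slc6a19 are direct neighbours on chromosome 13 and differed by 1.02 and 1.18. Slc22a5 at 0.40 and Slc22a4 with its bound lie with 1 protein-coding gene between them. The HNF1 core did not separate the members by their difference, since the 8 measured members with a core in the window had a median of 0.97 (0.10 to 1.20), and the 31 without one a median of 0.98 (-0.35 to 1.47).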

How the data were processed

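Total RNA of sorted kidney Tregs was hybridised to 2 single-colour (Cy3) Agilent mouse arrays, 1 per anti-GBM lot. The authors deposited the processed signal intensity and the median intensity of each spot with its background, quantified with Agilent Feature Extraction 10.7.1.1 per the submitters' processing notes and the file headers, background-corrected and detrended within each array and not normalised between arrays. The deposited value table holds a linear ratio (column medians 0.069 for the column labelled lot M and 0.07 for that labelled lot I). How the authors made it is not stated in the labels. Set against the scanner output, it is the processed signal over a constant for each array (278.6 for array 2 and 285.0 for array 1), with no centring by gene. Its scale and centring are thereby known; its assignment of arrays to lots is not settled.

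The level is log2 of the processed signal less the array's 75th percentile of that log2 value over non-control probes. Control spots (3671 per array) and outlier spots (56 on array 2, 75 on array 1) were left out, and 0 spots were saturated. Of 56605 probes, 32994 received 1 symbol through RefSeq accessions (GRCm38.p6 table, used for names because the array files name another build). A gene's level and difference are means over those of its probes that both arrays flagged as well above background. The computation was tested on simulated data. Normexp correction (limma 3.58.1) used the median foreground and background intensities and an offset of 50. Alternatives were other background, scaling, centring, filter, flag, probe and fold choices. The members, the segment, cargo, partner and marker lists and the alternatives were chosen with earlier results of these data known; all 48 members are accounted for, every measured one with its difference. The precision is limited by the number of arrays, 1 per lot, and by spots near background. A few genes of the partner and marker lists, counted in the list totals, are not reported here by name.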

Additional observations from a re-analysis of the deposited data

How the results depend on the processing

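Of the 12 alternatives to background, scaling, centring, filter, flag, probes and source, normexp background correction made the differences smaller. It left 7 members 2-fold higher on array 2 and lowered the medians to 0.62 for all members, 0.81 for S1/S2, 0.86 for S2, 0.59 for organic anion carriers and 0.80 for endocytic receptors. An offset of 50 was part of this setting. A constant added to both signals makes their log ratio smaller, most so for dim spots. How much the offset and the background correction each contributed was not tested. Over all genes normexp left 28 that were 2-fold higher on array 2 and 0 on array 1, against 184 and 12. Both normexp and the values reported cover 13743 measured genes. Other filters changed the number measured. With no filter on dim probes the counts were 648 and 399 of 22911 genes. They were 84 and 1 of 11830 with the stricter filter, and 440 and 229 of 16127 with the other detection flag. In the same order, 22 of 48, 18 of 33 and 23 of 47 members were 2-fold higher on array 2. The filter at 4 times the detection floor left 33 members and put the S3 median at 0.57 over 2 genes, because the dim S3 genes were removed. At a 1.5-fold limit 36 members were higher on array 2, and at a 4-fold limit 0 were. With the value table, whose columns carry the opposite lot labels, the difference of lot M minus lot I turned round: 0 members were 2-fold higher and 23 were 2-fold lower, with medians of -1.01 for all members, -1.08 for S1/S2, -1.11 for S2, -0.29 for S3, -0.95 for organic anion carriers, -1.07 for organic cation and carnitine carriers and -1.05 for endocytic receptors. Apart from the value table, the median over all members ranged from 0.62 to 1.04 and the S3 median from 0.15 to 0.57. Single members changed sign under 4 of these 11 settings: Slc5a8 under normexp, spike-in scaling and lowess centring, and Abcc4 with no scaling and with spike-in scaling, both within 1 error of 0 in the values reported. The 8 spike-in controls had a median difference of 0.06, which their use for scaling takes off each value. The median over members became neither larger nor smaller by more than 1 typical error (0.20) with Slc22a4 at its bound or without the members known outside the tubule. The number of arrays, 1 per lot, limits every difference, and the median spot error was 0.25 for the 14 members with a mean level under -2 and 0.20 for the 31 others.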
